A study of Mus musculus with 10 samples.

Results

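Complement genes were followed in RNA of liver sinusoidal endothelial cell (LSEC) isolates from mice on a CDAA diet and on a control diet. The set held 34 components, receptors and regulators of the complement system chosen by gene symbol, and 32 of them had a named probe set among the 24704 genes measured. C3 and Cfd are not analysed here. By role, the measured genes were 6 of the classical pathway, 6 of the lectin pathway, 2 of the alternative pathway, 6 of the terminal pathway, 4 receptors and 8 regulators.

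Complement is a cascade of plasma proteins that tags microbes, dying cells and debris for removal. The classical pathway starts when C1q binds antibody or a damaged surface, the lectin pathway starts when collectins or ficolins bind sugars, and the alternative pathway amplifies the reaction on any unprotected surface. All 3 routes cleave the central component and then C5, which releases peptides that call in leukocytes and starts assembly of the membrane attack complex. Hepatocytes make most of the plasma components, whereas C1q comes mainly from macrophages, and host cells carry membrane proteins that stop the cascade on their own surface.

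The CDAA group held 5 pools of cells from female C57BL/6N mice, 10 weeks old at the start, fed for 10 weeks with a diet in which fat supplied 31% of the calories and cholesterol made up 1%. The letters are the usual name of a diet that lacks choline, supplies defined amino acids and leads to a fatty, scarred liver. The Std group held 5 pools from siblings of the same sex, strain and age on a control diet. A duration field in the labels reads 10 days, but titles and protocols give 10 weeks. Each pool combined 3 mice and each array carried 1 pool, so that the spread between arrays is a spread between pools. Cells were taken from the non-parenchymal fraction with magnetic beads against CD146, an adhesion molecule that is not restricted to LSEC. The design text of the series speaks of mice without Gata4 in LSEC, but no sample carries that label, and they are not analysed here.

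The isolate held more than LSEC. Stab2, a scavenger receptor that defines LSEC, averaged 11.31 with CDAA and 12.20 with Std, and the pan-endothelial Pecam1 averaged 11.17 and 11.64, on the log2 scale of the arrays, whose median is 3.89. Signal of the Kupffer cell lectin Clec4f (9.32 with CDAA and 10.47 with Std) and of hepatocyte albumin, Alb (11.90 and 10.62), was far above that median too. Alb rose by 1.28 and Clec4f fell by 1.14. Mean log2 values of marker lists moved with the diet: 9 Kupffer cell genes spanned 7.66 to 8.50 over the CDAA arrays and 8.32 to 9.36 over the Std arrays (1 rose, 5 fell), 8 recruited macrophage genes 8.05 to 9.51 and 4.89 to 5.81 (7 rose), and 12 pan-endothelial genes 9.83 to 10.91 and 11.12 to 11.29 (9 fell). The 12 hepatocyte genes spanned 6.50 to 7.60 and 6.44 to 6.98, with 3 risen and 2 fallen. The 9 LSEC genes spanned 10.07 to 11.09 and 11.47 to 11.62, with 7 fallen, Stab2 among them. CDAA 1 and CDAA 3 stood apart from the other CDAA arrays, with the highest recruited macrophage means (9.27 and 9.51) and the lowest pan-endothelial means (10.21 and 9.83). Std 3 alone carried strong neutrophil signal, at a list mean of 8.93 against 3.62 to 3.94 in the other Std arrays. The CDAA arrays lay between, at 4.75 to 5.66. In such a mixture, fewer cells of a type and less RNA per cell cannot be told apart.

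The complement genes did not move as a block. With CDAA, 7 of the 32 rose and 9 fell, while 16 did not pass the threshold, which was a limma adjusted p of 0.05 (Benjamini-Hochberg over all 24704 genes). Of all genes tested, 16.6% passed (7.49% risen, 9.13% fallen), against 50% of the complement genes, a description and not a test of the set. These shares are not matched for signal. Below the array median in both diets were 8 of the 32 genes and 11957 of all 24704. The deepest falls were those of the terminal component C6 and of ficolin A, Fcna, and the largest rises those of the anaphylatoxin receptor C3ar1 and of the regulators Cfi and Clu. Soluble regulators of the set rose, 4 of 4, and its membrane regulators fell, 3 of 4, a grouping made after their values were seen. Of the membrane regulators that fell, Cd46 had very low signal. The CDAA and Std arrays did not overlap for 12 of the 32, with CDAA higher for 6 and lower for 6, against 13.9% of all genes (6.16% higher and 7.73% lower). The median change of the 32 genes was -0.13 on the log2 scale, beside -0.02 for all genes. Without CDAA 1 and CDAA 3, 5 of the 32 rose and 7 fell, beside 1305 risen and 1307 fallen of all 24704 genes.

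**Figure D1:**
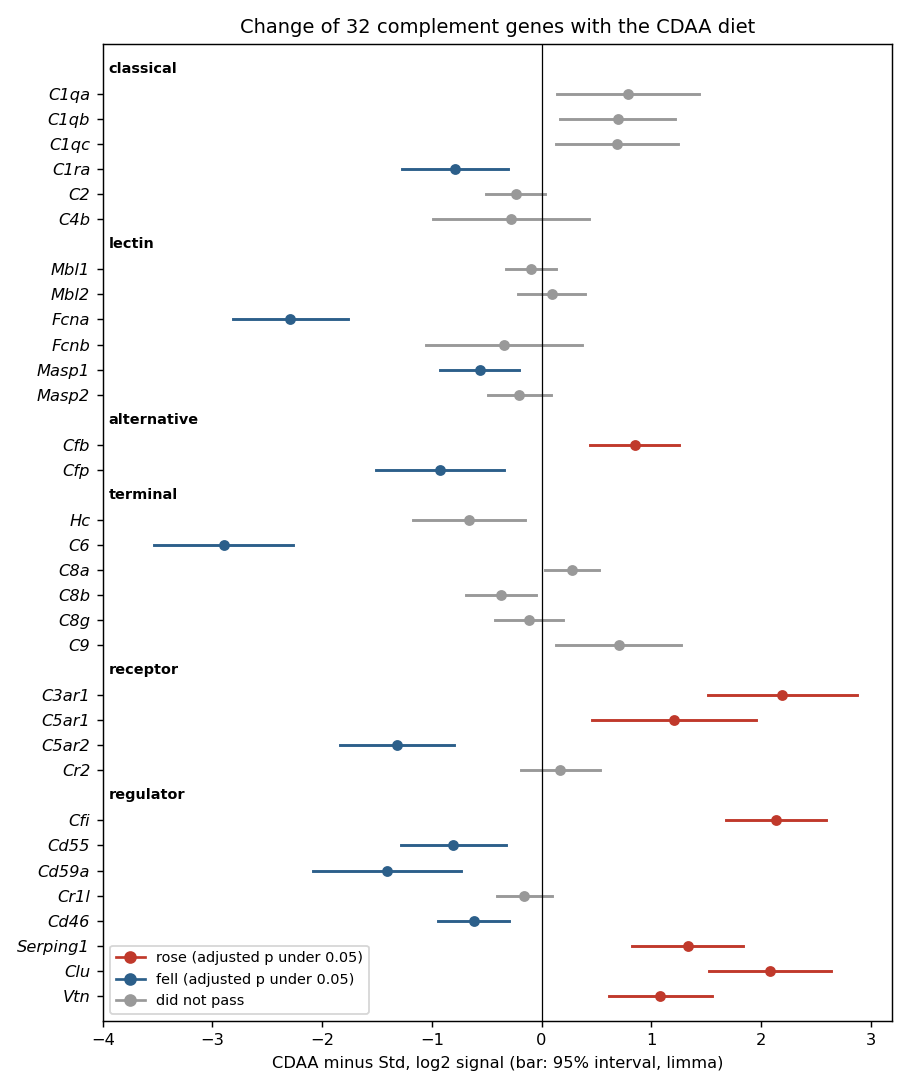
Change of each measured complement gene, as CDAA minus Std log2 signal with its 95% interval from limma, ordered by role from top to bottom (n = 5 pools per diet). C6 and Fcna lie farthest to the left, C3ar1, Cfi and Clu farthest to the right, and no measured gene of the classical, lectin or terminal pathway passed as risen.

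In the classical pathway, the 3 chains of C1q were higher on average with CDAA without passing the threshold, and the protease gene C1ra fell. C1q is the recognition molecule built from the products of C1qa, C1qb and C1qc. C1qa (probe set 12259_at) had log2 signals of 10.30, 9.60, 10.62, 9.02 and 9.60 in CDAA 1 to CDAA 5, against 8.76, 9.60, 9.31, 8.38 and 9.13 in Std 1 to Std 5. C1qb had 11.44, 11.20, 11.79, 10.64 and 10.79 with CDAA, against 10.22, 10.82, 10.91, 9.89 and 10.55 with Std. C1qc had 10.83, 10.31, 11.23, 9.85 and 10.42 with CDAA, against 9.52, 10.29, 10.09, 9.29 and 10.02 with Std. In each chain CDAA 3 and then CDAA 1 were the highest arrays, CDAA 4 was the lowest CDAA array and Std 4 the lowest of all, and the diets overlapped. The differences were 0.79 ± 0.30, 0.69 ± 0.24 and 0.68 ± 0.26 (SE, limma adjusted p = 0.0957, 0.0713 and 0.0925), with 95% intervals of 0.14 to 1.44, 0.17 to 1.22 and 0.13 to 1.24. Without CDAA 4 all 3 passed, at 0.99, 0.83 and 0.85 (limma adjusted p = 0.0269, 0.0326 and 0.0275), and without CDAA 1 and CDAA 3 they were at 0.37, 0.40 and 0.35 and did not pass. With the replicate number as a block in the fit they passed (limma adjusted p = 0.0351, 0.015 and 0.0374), though the labels do not say that a number is shared. With the Kupffer cell mean of each array as a covariate in the fit they also passed, at 2.05, 1.75 and 1.78. Adjusted in the same way for the pan-endothelial mean their estimates turned negative, at -0.37, -0.13 and -0.30, and did not pass. Both list means moved with the diet. The pan-endothelial mean did not overlap between diets (9.83 to 10.91 with CDAA, 11.12 to 11.29 with Std). A fit with it can hardly separate it from the diet. Here and below, a call lost in that fit therefore does not show that a change was absent.

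C1ra encodes a form of the protease C1r that C1q activates. It had log2 signals of 3.44, 4.14, 2.97, 3.78 and 3.71 with CDAA, against 4.54, 4.33, 3.78, 4.56 and 4.77 with Std. Most CDAA arrays were below the array median of 3.89, and CDAA 2 overlapped Std 3. C1ra fell by 0.79 ± 0.22 (SE, limma adjusted p = 0.0292). It did not pass without CDAA 1 (-0.75), CDAA 3 (-0.63), Std 1 (-0.75), Std 2 (-0.80), Std 4 (-0.75) or Std 5 (-0.69). Without both CDAA 1 and CDAA 3 it was at -0.52 (limma adjusted p = 0.146), and adjusted for the pan-endothelial mean at -0.071 (limma adjusted p = 0.943). C2 and C4b, whose products form the convertase shared by the classical and lectin pathways, did not pass. C2 averaged 6.81 ± 0.23 with CDAA and 7.05 ± 0.15 with Std (SD, n = 5 each), and C4b averaged 7.32 ± 0.75 and 7.60 ± 0.45. C4b was highest in CDAA 3 at 8.36 and lowest in CDAA 4 at 6.58, so that its CDAA arrays spread on both sides of the Std mean. Adjusted for the pan-endothelial mean C4b passed as lower with CDAA, at -1.63 (limma adjusted p = 0.015), and adjusted for the Kupffer cell mean it was at 1.00 and did not pass.

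The upstream sequences of C1qb and C1qc are shown because these 2 chains had nearly the same differences and lie next to each other in the annotation, with no protein-coding gene between them. C1qa lies next to C1qc in the same way, but no promoter window was at hand for it. Each sequence shown is the 250 bases before the annotated start of transcription in RefSeq (GRCm38.p6). C1qb is at chr4:136886201-136886450 and C1qc at chr4:136892915-136893164, both on the minus strand and written 5′ to 3′. Capitals mark matches, on either strand, to the motifs GAGGAAG (bound by the myeloid factor PU.1), TTNCNNAA (bound by C/EBP factors) and AGATAA, for the zinc finger factors of the GATA family, and to the consensus motifs of NF-kB and HNF1.
C1qb: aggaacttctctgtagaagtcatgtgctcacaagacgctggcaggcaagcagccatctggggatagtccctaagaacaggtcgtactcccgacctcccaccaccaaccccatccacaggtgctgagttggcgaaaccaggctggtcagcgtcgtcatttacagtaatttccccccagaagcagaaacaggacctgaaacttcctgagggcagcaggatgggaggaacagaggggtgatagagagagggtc
C1qc: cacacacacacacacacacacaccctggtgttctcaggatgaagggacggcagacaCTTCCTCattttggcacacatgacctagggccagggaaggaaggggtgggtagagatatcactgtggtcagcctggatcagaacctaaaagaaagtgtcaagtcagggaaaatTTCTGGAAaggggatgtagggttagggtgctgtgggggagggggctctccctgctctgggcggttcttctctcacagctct
C1qc held a PU.1 match 194 to 188 bases before the start and a C/EBP match 81 to 74 bases before it, and C1qb held none of the 5 motifs. RefSeq promoter windows of 300 bases (the 250 bases shown and the next 50) were at hand for 26 of the 34 genes. Among these, 3 held the PU.1 motif, 11 the C/EBP motif, 3 the GATA motif, 1 the NF-kB motif and 0 the HNF1 motif, that is 11.5%, 42.3%, 11.5%, 3.85% and 0%. Of all 32851 windows, 13.6%, 40.7%, 11.2%, 1.63% and 0.00913% held them. A match is a run of letters and no evidence of binding.

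In the lectin pathway, Fcna had the deepest fall of any complement gene after C6, Masp1 fell slightly, and the remaining 4 genes did not pass. Fcna encodes ficolin A, a sugar-binding recognition molecule made in mice by macrophages of liver and spleen. Its log2 signals (probe set 14133_at) were 6.66, 6.95, 7.20, 6.89 and 6.34 with CDAA, against 8.74, 9.80, 9.32, 8.38 and 9.23 with Std. Every CDAA array was more than 1 log2 unit below the lowest Std array, Std 4. Fcna fell by 2.29 ± 0.24 (SE, limma adjusted p = 0.000111), a 4.89-fold lower signal, which ranked 10 among the falls of all 24704 genes. It passed under all 22 other settings, at -1.29 adjusted for the Kupffer cell mean and -2.60 adjusted for the pan-endothelial mean. Masp1 encodes a protease that travels with mannose-binding lectins and ficolins. Its signals were 9.76, 9.96, 9.03, 10.04 and 9.82 with CDAA, against 10.32, 10.24, 10.20, 10.38 and 10.29 with Std. The Std arrays lay close together and all CDAA arrays were below them, CDAA 3 by the widest margin. Masp1 fell by 0.56 ± 0.17 (SE, limma adjusted p = 0.0364), and this did not pass without CDAA 1 (-0.57), CDAA 5 (-0.59), Std 1 (-0.55), Std 2 (-0.57), Std 3 (-0.58), Std 4 (-0.54) or Std 5 (-0.56). Adjusted for the pan-endothelial mean the direction turned, at 0.082 (limma adjusted p = 0.869).

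Fcnb, Mbl1, Mbl2 and Masp2 had mean signals of 2.87, 3.55, 2.98 and 3.75 with CDAA and 3.22, 3.64, 2.88 and 3.95 with Std, near or below the array median, so nothing can be said of their transcripts beyond a low signal. Fcnb, the ficolin of bone marrow and neutrophils in mice, stood at 4.73 in Std 3 and at 2.73 to 3.04 in the other Std arrays. Std 3 was also the array with the strongest neutrophil signal, and the part of neutrophils in the Fcnb value was not tested. The 95% intervals of the differences were -0.32 to 0.13 for Mbl1, -0.21 to 0.40 for Mbl2, -0.49 to 0.09 for Masp2 and -1.05 to 0.37 for Fcnb.

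Among the 2 alternative pathway genes, Cfb rose and Cfp fell. Cfb encodes factor B, the protease of the alternative convertase. Its log2 signals were 7.83, 7.63, 8.18, 7.47 and 7.78 with CDAA, against 6.85, 7.32, 7.28, 6.39 and 6.80 with Std. The groups did not overlap, although CDAA 4 was close above Std 2. Cfb rose by 0.85 ± 0.19 (SE, limma adjusted p = 0.00828), 1.80-fold, and was at 0.70 without CDAA 1 and CDAA 3, where it did not pass (limma adjusted p = 0.0537), and at 0.33 adjusted for the pan-endothelial mean, where it did not pass either. C2, the next protein-coding gene to Cfb in the annotation and its counterpart in the classical convertase, was at -0.24 and did not pass. Cfp encodes properdin, which stabilises the alternative convertase and is released by leukocytes. Its signals were 8.66, 8.64, 9.49, 8.22 and 8.28 with CDAA, against 9.20, 9.97, 10.03, 8.92 and 9.82 with Std. CDAA 3 was higher than Std 1 and Std 4, and the other CDAA arrays were below all Std arrays. Cfp fell by 0.93 ± 0.27 (SE, limma adjusted p = 0.0329). It did not pass without CDAA 1 (-0.93), CDAA 2 (-0.92), CDAA 4 (-0.82), CDAA 5 (-0.83), Std 2 (-0.83), Std 3 (-0.82) or Std 5 (-0.87), and with the Kupffer cell mean as a covariate its estimate was 0.33 and did not pass.

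Within the terminal pathway C6 alone passed, and it had the deepest fall of the complement genes. C6 joins C5b in the first step of membrane attack complex assembly. Its log2 signals (probe set 12274_at) were 4.23, 4.97, 5.62, 4.95 and 5.05 with CDAA, against 7.52, 8.33, 8.58, 7.12 and 7.77 with Std. The highest CDAA array, CDAA 3, was 1.5 log2 units under the lowest Std array, Std 4, and all CDAA arrays stayed above the array median. C6 averaged 4.96 ± 0.50 with CDAA and 7.86 ± 0.59 with Std (SD, n = 5 each), a 7.45-fold lower signal (SE of the log2 change 0.29, limma adjusted p = 8.61e-05), and ranked 4 among the falls of all genes. It passed under all 22 other settings, at -2.87 without CDAA 1 and CDAA 3, -3.27 adjusted for the pan-endothelial mean, -2.98 for the hepatocyte mean and -1.73 for the Kupffer cell mean. CDAA 3 was the CDAA array with the highest C6, Fcna and Kupffer cell mean (5.62, 7.20 and 8.50), and Std 4 the Std array with the lowest (7.12, 8.38 and 8.32). Elsewhere the orders differed. CDAA 1, with the next highest Kupffer cell mean (7.85), had the lowest C6 (4.23). Fcna was lowest in CDAA 5 (6.34) and the Kupffer cell mean in CDAA 4 (7.66). In Std, Fcna and the Kupffer cell mean were highest in Std 2 (9.80 and 9.36), but C6 in Std 3 (8.58). The Kupffer cell list as a whole averaged 7.92 with CDAA and 8.92 with Std. Its 9 genes did not move alike, with Timd4 at -3.73 and Cd163 at -3.73 at one end, Cd68 at 1.38 at the other, and Cd5l, Adgre1 and Csf1r, which did not pass, at 0.18, 0.56 and 0.36. The part of Kupffer cells in the falls of C6 and Fcna was not tested.

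The other terminal genes did not pass, and all but Hc carried less signal than C6 in both diets. Hc averaged 5.69 with CDAA, above C6 at 4.96, and 6.35 with Std, below C6 at 7.86. Hc encodes C5 and had signals of 4.80, 5.95, 5.35, 6.26 and 6.09 with CDAA, against 6.42, 6.47, 6.23, 6.43 and 6.23 with Std. Hc was lowest in CDAA 1 and CDAA 3, and its difference of -0.66 ± 0.24 (SE, limma adjusted p = 0.0761) passed without CDAA 4, at -0.81. C9, the pore-forming component, was at 4.82 in CDAA 3 and spanned 3.16 to 3.72 elsewhere with CDAA, against 2.65 to 3.26 with Std (limma adjusted p = 0.0908). It passed adjusted for the Kupffer cell mean, at 1.65, and with the replicate number as a block (limma adjusted p = 0.0328). Adjusted for the pan-endothelial mean C9 was at -0.14. C8a, C8b and C8g, whose products form C8, differed by 0.28, -0.37 and -0.11, with mean signals of 3.91, 3.15 and 3.68 with CDAA and 3.63, 3.52 and 3.79 with Std. Over all 32 genes, 10 had a CDAA mean below the array median and 9 a Std mean below it, 8 of them in both, and in such genes a difference in signal can understate a difference in transcript.

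The upstream sequences of Fcna and C6 are shown because these genes fell most, with capitals for the same motifs. They are the 250 bases before the RefSeq start at chr2:25627975-25628224 on the minus strand and at chr15:4726960-4727209 on the plus strand (GRCm38.p6).
Fcna: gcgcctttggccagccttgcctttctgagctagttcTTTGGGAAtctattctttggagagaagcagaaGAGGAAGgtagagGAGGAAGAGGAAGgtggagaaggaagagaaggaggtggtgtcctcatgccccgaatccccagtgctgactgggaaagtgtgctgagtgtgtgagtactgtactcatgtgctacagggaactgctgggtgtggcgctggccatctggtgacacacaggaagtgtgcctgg
C6: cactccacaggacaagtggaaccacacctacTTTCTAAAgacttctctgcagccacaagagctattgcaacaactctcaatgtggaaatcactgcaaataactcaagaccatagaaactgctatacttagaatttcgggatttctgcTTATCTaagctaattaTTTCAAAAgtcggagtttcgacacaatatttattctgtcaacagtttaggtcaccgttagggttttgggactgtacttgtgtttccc
Fcna held 3 PU.1 matches between 182 and 157 bases before the start, the last pair overlapping by 1 base, and a C/EBP match 214 to 207 bases before it. C6 held C/EBP matches 219 to 212 and 87 to 80 bases before the start and a GATA match 103 to 98 bases before it. The PU.1 motif was found in the Fcna window and not in the C6 window, and a link of any motif to the falls was not tested.

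Receptors for complement peptides moved in opposite directions. C3ar1, the receptor for C3a on myeloid cells, and C5ar1, the main receptor for C5a on neutrophils and macrophages, rose, and C5ar2, a second C5a receptor that does not couple to G proteins, fell. C3ar1 (12267_at) had log2 signals of 9.11, 7.94, 9.35, 7.48 and 7.95 with CDAA, against 6.12, 6.43, 6.13, 5.94 and 6.21 with Std. All CDAA arrays were above all Std arrays, and CDAA 1 and CDAA 3 were the highest. C3ar1 rose by 2.20 ± 0.31 (SE, limma adjusted p = 0.000713), 4.59-fold, and by 1.62 without CDAA 1 and CDAA 3. Adjusted for the pan-endothelial mean it was at 0.85 and did not pass (limma adjusted p = 0.0783). The recruited macrophage mean had the same order of the 5 CDAA arrays as C3ar1, highest in CDAA 3 (9.51) and lowest in CDAA 4 (8.05), and the part of these cells in the rise was not tested.

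C5ar1 had signals of 5.63, 5.04, 6.10, 4.70 and 5.25 with CDAA, against 3.62, 3.92, 5.45, 3.97 and 3.72 with Std. Std 3 reached into the CDAA range, and the other Std arrays were below every CDAA array. C5ar1 rose by 1.21 ± 0.34 (SE, limma adjusted p = 0.0309). Without Std 3, the array with the strongest neutrophil signal, it rose by 1.54 (limma adjusted p = 0.0018). The neutrophil list mean was still higher with CDAA in that contrast, at 4.75 to 5.66 against 3.62 to 3.94 in the other Std arrays. The part of neutrophils in the rise was not tested. C5ar1 did not pass without CDAA 1 (1.14), CDAA 3 (1.02), CDAA 5 (1.23), Std 1 (1.08), Std 2 (1.16), Std 4 (1.17) or Std 5 (1.11), nor without CDAA 1 and CDAA 3 (0.86). Adjusted for the pan-endothelial mean C5ar1 was at 0.18 (limma adjusted p = 0.909) and for the hepatocyte mean at 1.06 (limma adjusted p = 0.06), and it passed in neither fit. C5ar2 lies next to C5ar1 in the annotation. C5ar2 had signals of 9.02, 9.75, 8.44, 9.72 and 9.07 with CDAA, against 10.64, 10.01, 10.71, 10.78 and 10.44 with Std. The groups did not overlap, and CDAA 3 and CDAA 1 were the lowest arrays. C5ar2 fell by 1.32 ± 0.24 (SE, limma adjusted p = 0.00305), 2.49-fold, and by 1.01 without CDAA 1 and CDAA 3. Adjusted for the pan-endothelial mean, the difference was -0.41 and did not pass.

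Cr2, which encodes the B cell receptor CD21, was at 2.81 ± 0.14 with CDAA and 2.64 ± 0.39 with Std (SD, n = 5 each), under the array median on all 10 arrays. Of 7 measured B cell markers 0 passed by limma, 2 had an unadjusted p under 0.05, and 4 were below the array median in both diets. The upstream sequence of C3ar1, the receptor that rose most, is at chr6:122856158-122856407 on the minus strand (RefSeq, GRCm38.p6), again with motif matches in capitals.
C3ar1: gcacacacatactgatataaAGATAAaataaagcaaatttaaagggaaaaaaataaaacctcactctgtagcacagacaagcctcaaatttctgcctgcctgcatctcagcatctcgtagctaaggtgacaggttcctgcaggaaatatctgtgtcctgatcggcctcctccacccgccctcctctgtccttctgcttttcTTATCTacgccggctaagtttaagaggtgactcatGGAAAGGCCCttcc
It held GATA matches 230 to 225 and 49 to 44 bases before the start and the only NF-kB match among the 26 genes searched, 14 to 5 bases before the start.

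**Figure D2:**
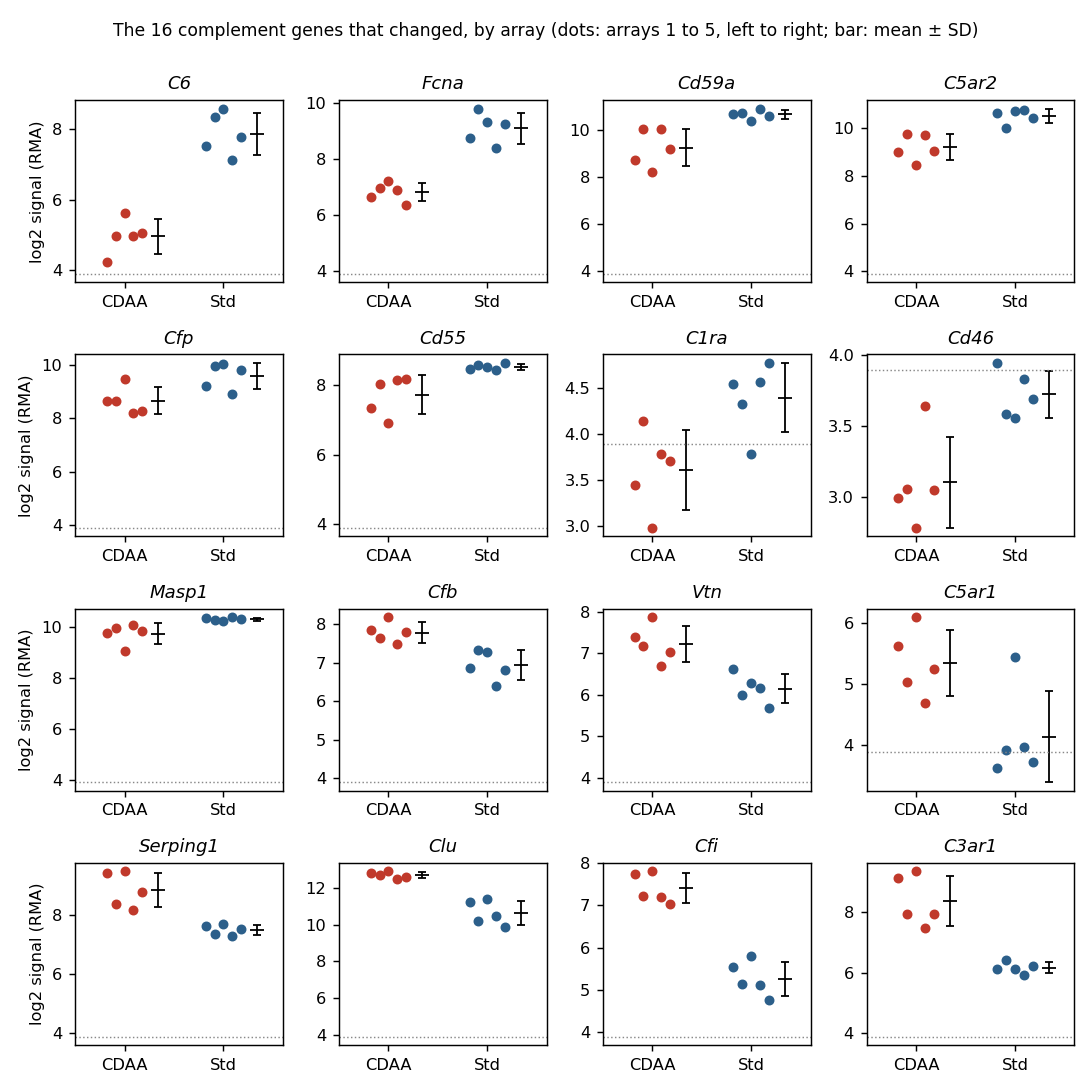
Log2 signal of the 16 complement genes that changed, with a dot for each array (1 to 5 from left to right in each diet), the mean with its SD (n = 5), and the array median of 3.89 as a dotted line where it falls in range. The panels run from the deepest fall, C6, to the largest rise, C3ar1, each with its own vertical axis that does not start at 0.

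Soluble regulators of the set rose and most of its membrane regulators fell. Grouping the regulators by where they act was done after their values were seen. It covers only the regulators of the set and not the further complement genes counted below. Among those, the soluble C4bp (0.56) did not pass and the soluble Cpn1 (1.26) rose. The membrane genes Cd55b (0.075), Cd59b (-0.039), Susd4 (-0.34) and Thbd (0.15) did not pass, and Vsig4 (-1.14) fell. Cfi encodes factor I, the plasma protease that inactivates deposited complement fragments. Cfi (12630_at) had log2 signals of 7.75, 7.23, 7.81, 7.21 and 7.02 with CDAA, against 5.54, 5.13, 5.79, 5.11 and 4.75 with Std. Every CDAA array was more than 1 log2 unit above the highest Std array. Cfi rose by 2.14 ± 0.21 (SE, limma adjusted p = 7.22e-05), 4.40-fold, and passed under all 22 other settings, at 1.63 adjusted for the pan-endothelial mean and 2.01 for the hepatocyte mean. Clu encodes clusterin, a chaperone of body fluids that blocks insertion of the attack complex. Clu had 12.85, 12.74, 12.93, 12.51 and 12.62 with CDAA, against 11.25, 10.24, 11.39, 10.49 and 9.88 with Std. The CDAA arrays were tightly grouped above widely spread Std arrays, and Clu rose by 2.08 ± 0.25 (SE, limma adjusted p = 0.000279), 4.24-fold. The rise was nearly as large without CDAA 1 and CDAA 3, at 1.98. Adjusted for the pan-endothelial mean, which did not overlap between diets, it was at 1.85 and did not pass (limma adjusted p = 0.0772).

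Serping1 encodes C1 inhibitor, which inactivates the proteases of the classical and lectin pathways. Serping1 had 9.39, 8.37, 9.46, 8.17 and 8.76 with CDAA, against 7.63, 7.36, 7.68, 7.29 and 7.52 with Std. It was highest in CDAA 3 and CDAA 1 and did not overlap between diets, with a rise of 1.33 ± 0.23 (SE, limma adjusted p = 0.00246) that was 0.94 without these arrays. Vtn encodes vitronectin, a plasma and matrix protein that also binds the nascent attack complex. Vtn had 7.38, 7.17, 7.87, 6.70 and 7.02 with CDAA, against 6.61, 5.99, 6.28, 6.16 and 5.67 with Std. The lowest CDAA array, CDAA 4, was just above Std 1, and Vtn rose by 1.08 ± 0.22 (SE, limma adjusted p = 0.00518), or by 0.82 without CDAA 1 and CDAA 3. Serping1 and Vtn were at 0.38 and 0.45 adjusted for the pan-endothelial mean and did not pass. The mean of 10 stellate cell and fibroblast markers spanned 6.62 to 8.18 with CDAA and 5.86 to 6.34 with Std, with 5 risen and 5 that did not pass, and a median change of 0.78. The mean of 9 bile duct and mesothelial markers spanned 6.39 to 7.12 with CDAA and 4.52 to 5.40 with Std, with 6 risen and 3 that did not pass, and a median change of 2.25. Their defining markers Col1a1 (8.90 with CDAA and 5.46 with Std) and Krt19 (6.08 and 3.83) were among those that rose. The part of those cells, and of hepatocytes, in the 4 rises was not tested.

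Of the regulators on the cell surface, Cd59a, Cd55 and Cd46 fell and Cr1l did not pass. Cd59a encodes the lipid-anchored protein that keeps C9 from forming pores. Cd59a had log2 signals of 8.74, 10.07, 8.24, 10.04 and 9.23 with CDAA, against 10.71, 10.74, 10.40, 10.93 and 10.59 with Std. The CDAA arrays were all lower and far more spread out than the Std arrays. Cd59a fell by 1.41 ± 0.31 (SE, limma adjusted p = 0.00841), 2.66-fold, and by 0.89 without CDAA 1 and CDAA 3. Cd55 encodes decay-accelerating factor, which takes convertases apart. Cd55 had 7.36, 8.04, 6.93, 8.16 and 8.19 with CDAA, against 8.48, 8.60, 8.52, 8.45 and 8.65 with Std. CDAA 1 and CDAA 3 were far below the Std arrays and the other CDAA arrays only slightly below, and Cd55 fell by 0.80 ± 0.22 (SE, limma adjusted p = 0.0252). It was at -0.41 without CDAA 1 and CDAA 3 (limma adjusted p = 0.0216), and did not pass without CDAA 1 (-0.71), Std 1 (-0.82), Std 2 (-0.79) or Std 5 (-0.78). Adjusted for the pan-endothelial mean, Cd59a was at -0.069 and Cd55 at 0.070, and neither passed. The order of the CDAA arrays in the pan-endothelial mean, lowest in CDAA 3 (9.83) and next lowest in CDAA 1 (10.21), was shared by Cd59a, Cd55 and C5ar2 for these 2 arrays.

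Cd46 encodes membrane cofactor protein, which in mice is found mainly in the testis. Cd46 had signals of 2.99, 3.06, 2.78, 3.64 and 3.05 with CDAA, against 3.95, 3.58, 3.56, 3.83 and 3.69 with Std. Except for Std 1 these lay below the array median, so the fall of 0.62 ± 0.15 (SE, limma adjusted p = 0.0142) is one between very low signals, and it did not pass without CDAA 1 and CDAA 3, at -0.47, or adjusted for the pan-endothelial mean, at -0.14. Cr1l encodes Crry, the regulator that stands in for several human membrane regulators on mouse cells. Cr1l averaged 7.64 ± 0.16 with CDAA and 7.79 ± 0.18 with Std (SD, n = 5 each), a difference of -0.16 with a 95% interval of -0.41 to 0.09, which leaves out a change of the size seen for Cd59a.

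**Figure D3:**
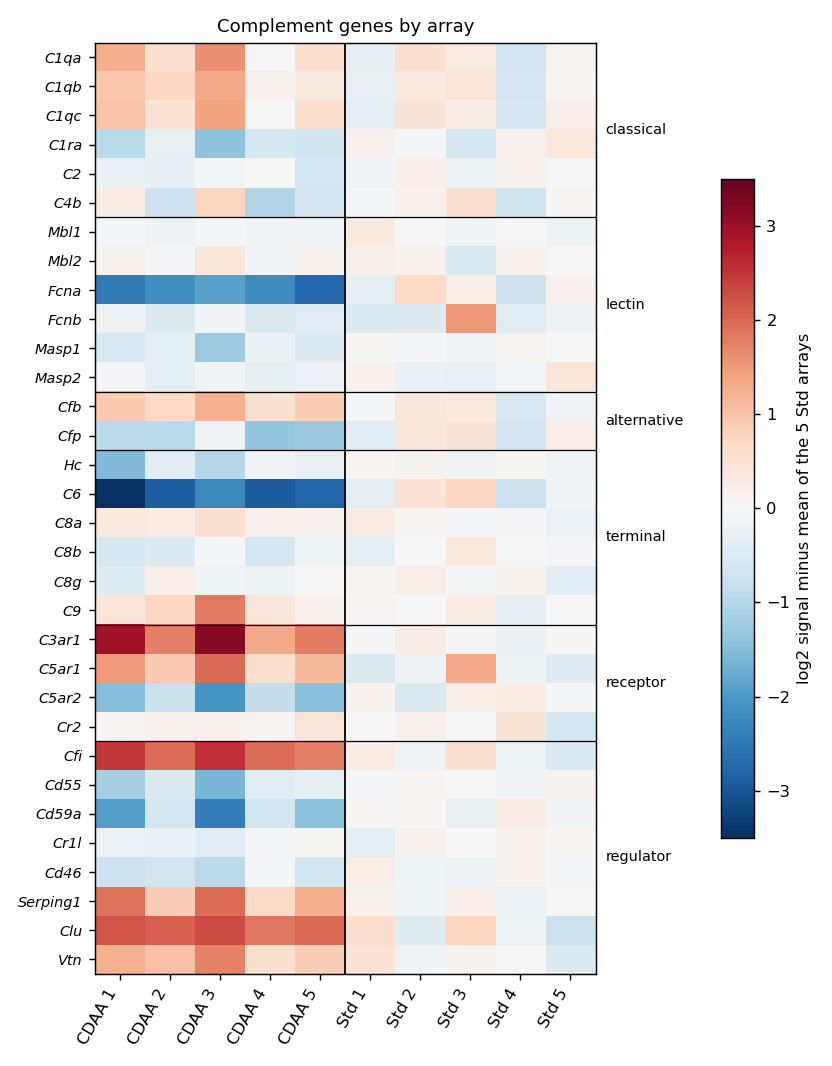
Log2 signal of the 32 measured complement genes in each array relative to the mean of the 5 Std arrays (red higher, blue lower), ordered by role, with CDAA left of the vertical line and Std right of it. CDAA 1 and CDAA 3 are the darkest columns for most genes that changed, C6, Fcna, Cfi and Clu are coloured alike in all CDAA arrays, and Std 3 stands out for Fcnb and C5ar1.

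Arrays differed in how far they moved. Of the 16 genes that changed, 13 had CDAA 1 and CDAA 3 as the arrays farthest from the Std mean, the exceptions being C6, Fcna and Cfp. Those 3 were highest, thus nearest to Std, in CDAA 3, which also had the highest Kupffer cell mean of the CDAA arrays. Of the 32 genes, 12 had their lowest Std value in Std 4. They were C1qa, C1qb, C1qc, C4b, Fcna, Cfb, Cfp, C6, C9, C3ar1, Cd55 and Serping1. Std 4 also had the lowest Kupffer cell mean of the Std arrays. The Kupffer cell list was itself split, with Cd68 risen and Timd4 fallen. The C1q chains and C6 thus shared their order over the Std arrays in part but differed in direction between diets, at 0.68 to 0.79 and at -2.90.

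**Figure D4:**
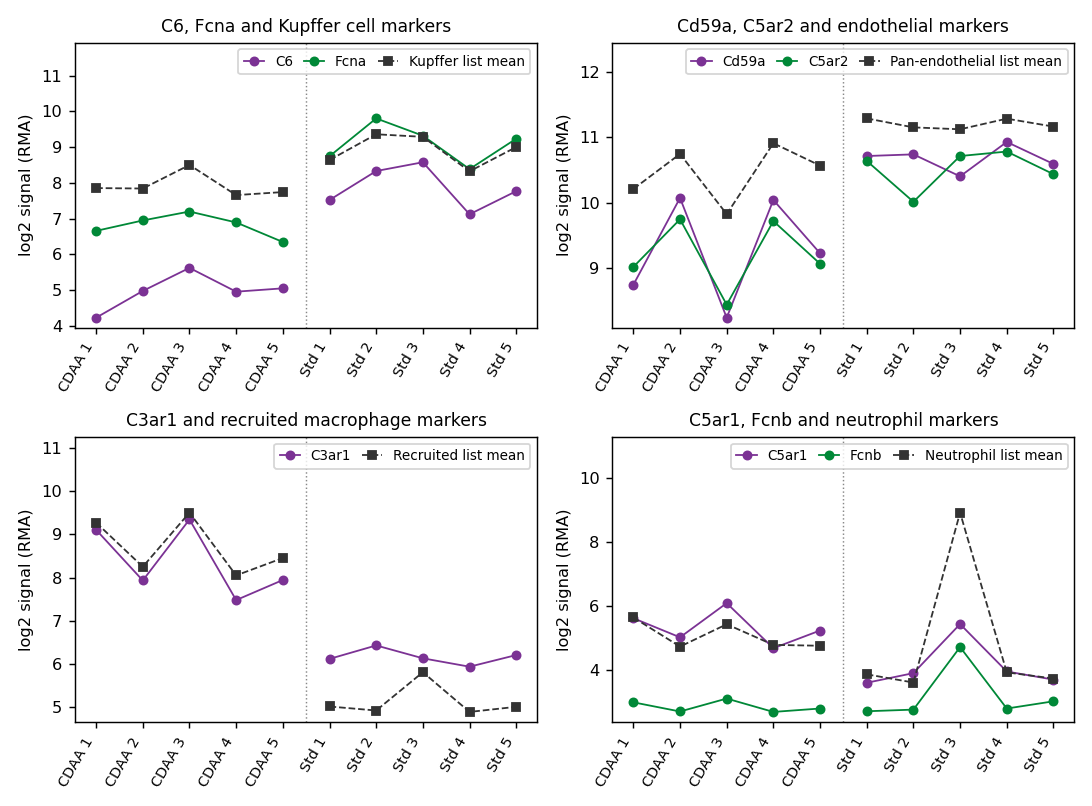
Log2 signal in each array of selected complement genes (solid lines) beside the mean of a marker list (dashed lines), CDAA left and Std right of the dotted line. The heights of different genes cannot be set against each other. The shape over arrays can be compared: Cd59a and C5ar2 dip where the pan-endothelial mean dips, C3ar1 is high where the recruited macrophage mean is high, and Std 3 stands out in C5ar1, Fcnb and the neutrophil mean.

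Of 34 further genes of the complement system, 30 were measured, 6 rose and 2 fell, a share of 26.7% against 16.6% of all genes. These shares are not matched for signal either, with 12 of the 30 below the array median in both diets. The median change of the 30 was 0.05. The largest rises were those of Itgax by 4.03 and Itgb2 by 1.70, which encode subunits of the integrin receptor for cleaved C3 fragments on myeloid cells, and of Crp by 2.06, which encodes a pentraxin that can bind C1q. Itgb2 did not pass without CDAA 1 (1.52), CDAA 3 (1.5), CDAA 5 (1.78), Std 1 (1.52), Std 2 (1.67), Std 4 (1.45) or Std 5 (1.68), nor without CDAA 1 and CDAA 3 (1.19), adjusted for the hepatocyte mean (1.53), or with an intensity trend and robust variance (1.70). Adjusted for the pan-endothelial mean Itgb2 was at 0.25 (limma adjusted p = 0.915) and Crp at 1.67 (limma adjusted p = 0.142), and neither passed. The falls were those of Colec10, a collectin of the lectin pathway, by 1.73, and of Vsig4, the complement receptor of Kupffer cells, by 1.14. Colec10 had 3.46 to 4.03 with CDAA, against 3.97 in Std 3 and 5.47 to 6.39 in the other Std arrays. Vsig4 had 8.54 to 9.62 with CDAA, against 9.45 to 10.35 with Std, and adjusted for the Kupffer cell mean Colec10 was at -1.81 and Vsig4 at -0.068, and neither passed. Colec10 did not pass adjusted for the pan-endothelial mean either, at -1.58 (limma adjusted p = 0.324). Itgax is also among the recruited macrophage markers.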

How the data were processed

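RNA was hybridised to 10 Affymetrix arrays. The authors deposited log2 values made with RMA, per the submitters' processing notes. RMA subtracts background, brings arrays to a common distribution and summarises probes, so total differences between arrays are lost. Its version and the probe sets' genome build are not given in the sources used here. No detection call is used, and the number of arrays limits the precision. CDAA 1 held 24921 distinct values and the others 10080 each, for an unknown reason.

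Of 25428 probe sets, 24705 had a gene symbol in the platform annotation and 723 are unnamed here, and for a gene with several the brightest was kept. The contrast CDAA minus Std was fitted in limma 3.58.1 (R 4.3.3), with moderated two-sided tests. The adjustment and threshold are given with the first counts, and the words rose and fell are kept for genes that passed. The script was tested on simulated data. Alternatives were a replicate block, other normalizations, filters and variance models, marker means as covariates, treat, and leaving out arrays, and those without CDAA 1 and CDAA 3 and with the Kupffer cell covariate were added after seeing the data. All 34 genes are named, with array values for C1q and those past the threshold, and Hc was given them after its values were seen. Members and lists were chosen with earlier results of these data known.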

Additional observations from a re-analysis of the deposited data

Results flagged for a closer look

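An array is listed here when it lay apart from the rest of its diet by over 0.71 of that diet's range, the value Dixon's test sets for 5 arrays. Chance alone would mark about 1 in 20 groups, and 4 of the 64 groups tested were marked. In Std 3, Fcnb was at 4.73, against 2.73 to 3.04 in the other Std arrays, and C5ar1 was at 5.45, against 3.62 to 3.97. The neutrophil marker S100a8 was at 11.65 in the same array, against 5.39 to 6.04. Also in Std 3, Mbl2 was at 2.42, against 2.91 to 3.05 in the other Std arrays, all below the array median. In CDAA 3, Masp1 was at 9.03, against 9.76 to 10.04 in the other CDAA arrays, and that array had the lowest pan-endothelial mean.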

How the results depend on the processing

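Fcna, C6 and Cfi kept their direction and their call under all 22 other settings, and 11 of the 16 changed genes kept the call when any single array was left out, the exceptions being C1ra, Masp1, Cfp, C5ar1 and Cd55. Over the 32 complement genes and their settings, 602 values kept direction and call, 57 lost the call in the same direction, 16 gained one and 18 changed sign, 3 of them values that had passed (Masp1, Cfp and Cd55). Leaving out single arrays gave 6 to 10 complement genes risen and 5 to 9 fallen (5 without CDAA 1, Std 2 or Std 5), 3 to 6 further pathway genes risen (3 without Std 1 or Std 4) and 2 to 3 fallen, and 1402 to 1989 of all genes risen and 1554 to 2583 fallen. The labels number the pools 1 to 5 in both diets without saying that a number is shared, so the numbers were not taken to pair them. The deviations of same-numbered pools correlated at 0.016, 0.14, 0.23, 0.25 and 0.095, all positive. In each diet 3 of 5 pools correlated best with their own number. Whether the numbers pair pools cannot be told from these values. With the replicate block 11 complement genes rose, C1qa, C1qb, C1qc and C9 passing in addition, beside 1893 of all genes. With the Kupffer cell covariate 11 complement genes rose, beside 1394 of all genes, and 0 further genes fell. With the pan-endothelial covariate 1 complement gene rose (Cfi) and 4 fell (C4b, C6, Cfp and Fcna), 1 further gene rose and 1 fell, and 168 of all genes rose and 73 fell. The main fit had 1851 of all genes risen and 2255 fallen, and this covariate did not overlap between diets. The treat test, with a minimum log2 change of 0.5, which asks for larger changes by construction, gave 3 and 2 complement genes, 2 and 0 further genes, and 357 and 95 of all genes risen and fallen. The hepatocyte covariate left 3 further genes risen. Without CDAA 1 and CDAA 3, with fewer arrays, 2 further genes rose, and 1305 of all genes rose and 1307 fell. With the pan-endothelial covariate the sign changed for C1qa (-0.37), C1qb (-0.13), C1qc (-0.30), Mbl2 (-0.17), Masp1 (0.082), Hc (0.13), C8g (0.084), C9 (-0.14) and Cd55 (0.070). With the Kupffer cell covariate it changed for C4b (1.00), Fcnb (0.42), Cfp (0.33) and Cr2 (-0.075). Mbl2 also changed sign with array weights (-0.026) and without CDAA 1 and CDAA 3 (-0.018), as did C8g in that fit (0.0087). Leaving out single arrays gave -0.023 to 0.14 for Mbl2 and -0.47 to 0.035 for Fcnb, with the sign changed without Std 3 in both. The cause was not tested. Leaving out the dimmest 25% of genes removed Cr2, and leaving out genes below the median left 22 of the 32.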
